A study of Mus musculus with 6 samples.

Results

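Schlafen and Ifi200 genes were examined in 3T3 cells after transfection with a GapmeR against the long non-coding RNA Ntep. The members were 10 named genes, 6 of the Schlafen family (Slfn1, Slfn2, Slfn3, Slfn5, Slfn8 and Slfn9) and 4 of the Ifi200 family (Ifi202b, Ifi203, Ifi204 and Ifi205), and every probe carrying one of these names was taken. They had 16 probes for 9 of the 10 genes, out of 35527 distinct names on the array. No probe carried the name Ifi205. 3T3 is an established line of mouse embryonic fibroblasts, and a GapmeR is an oligonucleotide complementary to an RNA, which RNase H then cuts. Cells received GapmeR Ntep or GapmeR control at 50 nM for 48 h, and both groups went through the same transfection, so no untreated cells enter the comparison. The experiment was done 3 times independently with 1 array for either GapmeR, so that 3 Agilent arrays stood for each group and all 6 lay on 1 slide. One GapmeR sequence and 1 cell line were used.

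Both families belong to the genes that type I interferon induces. Interferon binds its receptor, the kinases Jak1 and Tyk2 are activated, and a complex that contains Stat2 and Irf9 binds the interferon-stimulated response element in promoters. Schlafen proteins are known for roles in lymphocyte quiescence, growth control and restriction of viral translation, and the mouse genes lie side by side on chromosome 11. Ifi200 (PYHIN) proteins carry a HIN domain that binds DNA, most of them with a pyrin domain for contacts with other proteins, and are known as cytosolic and nuclear DNA sensors and as regulators of growth and differentiation. Their genes form a cluster on chromosome 1.

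The array labels were checked against the target. The probe of Ntep, named A630089N07Rik in the files, read 271, 272 and 361 on the control arrays of experiments 1 to 3, and 472, 91.5 and 226 on the arrays labelled GapmeR Ntep. It was higher under the Ntep label in experiment 1 and lower in the others, and the groups overlapped (log2 difference -0.48, SE 0.58, limma adjusted p = 0.632). Because experiment 1 went against its label, arrays are named by their labels, every direction is that of the label, and the values without GapmeR Ntep replicate 1 are given below. The share of the 55681 probes well above background ran from 43.7% to 53.3% per array, and no spot was saturated. Of 11 fibroblast marker probes, 10 were well above background on all 6 arrays, among them those of Col1a1, Col3a1 and Vim, whereas Fap was at the floor on every array. The summed fibroblast marker signal was 924574 to 1017030 on control arrays and 653852 to 826946 under the Ntep label. Of its 10 tested probes 0 passed after adjustment in limma and 2 were at an unadjusted p under 0.05, with log2 differences from -0.95 to 0.05. Of these 10, 9 lay below 0, with a median of -0.45. In 4 of 10, among them Col1a1 and Col3a1, every array labelled Ntep lay under every control array, beside 15.1% of all tested probes.

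Over both families, most members were lower under the GapmeR Ntep label. Normalised intensities are on a linear scale after quantile normalisation, with values under 20 set to 20, and a probe was tested when its mean reached 50 in the brighter group. Means are given with their SD (n = 3 arrays), and folds are differences between group means of log2 values turned into ratios. Of the 16 member probes, 15 were tested, and 14 of these lay below control, as did 45.5% of all tested probes. After Benjamini-Hochberg adjustment in limma (adjusted p under 0.05), 10 member probes of 6 genes were lower and 0 were higher (0 also at an unadjusted p under 0.05), where 3.21% of the 30990 tested probes were lower and 2.09% higher. With both a 2-fold difference or more and a p under 0.01 before adjustment, 13 of 15 member probes of 7 genes were lower, against 5.06% of all tested probes. In 13 of 15 every array labelled Ntep lay under every control array, as was the case for 15.1% of all tested probes. All these counts of lower probes include Slfn8 probe 2, which reached the test through the control arrays alone. The median log2 difference was -1.58 over the 7 tested Schlafen probes and -1.28 over the 8 Ifi200 probes, beside 0.06 over all tested probes. With 1 dim Schlafen probe set at its bound, the Schlafen median was -1.33. Members are neighbours and probes of the same gene, and were not counted as replicates.

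Limits bear on the adjusted calls more than on the sizes. Leaving out GapmeR control replicate 2, control replicate 3 or Ntep replicate 3 took the count of 10 member probes to 0 each time. It became 1 without control replicate 1, 4 of 14 without Ntep replicate 1 and 7 without Ntep replicate 2. The calls among all tested probes shrank as well, to 0 lower ones without control replicate 2 or Ntep replicate 3. The share called lower was 0.0161% without control replicate 3 and 0.333% without control replicate 1. It was 1.2% without Ntep replicate 1 and 2.97% without Ntep replicate 2. In each of these 6 runs, 13 or 14 member probes were lower at an unadjusted p under 0.05. The share of all tested probes at that limit was not counted, so this count has no background beside it.

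The Schlafen genes were described in the order of their subgroups. Slfn1 and Slfn2 encode the short proteins of the family. The single Slfn1 probe lay at the floor of 20 on all 6 arrays and was not well above background on any of them, so it gave no measurement. Slfn2, which is required for T cell quiescence in mice (probe at chr11:82883791-82883850, plus strand, mm9), read 1591, 2157 and 1688 on the control arrays of experiments 1 to 3 and 140.4, 379.9 and 384 under the Ntep label. Every control array was higher, and the array labelled Ntep of experiment 1 was lower than its 2 fellows. The means were 1812 ± 303 and 301 ± 139 (SD, n = 3 each), a 6.56-fold fall (log2 -2.71, SE 0.43, limma adjusted p = 0.0326). Without GapmeR Ntep replicate 1 the log2 difference was -2.25.

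Slfn3 is a protein of intermediate length, known for growth inhibition. Its probe (chr11:83028431-83028490, plus strand, mm9) read 384, 398 and 446 on control arrays and 116, 119 and 185 under the Ntep label. The groups were wide apart relative to their spread. Means were 409 ± 32.7 and 140.0 ± 38.9, and the gene fell 2.99-fold (log2 -1.58, SE 0.23, limma adjusted p = 0.0294).

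Slfn5, Slfn8 and Slfn9 encode long proteins with a helicase-like C-terminal part. Slfn8 showed the largest difference among all members. Its probe 1 (chr11:82815804-82815863, minus strand, mm9) read 8415, 10654 and 7487 on control arrays and 397, 1512 and 1449 under the Ntep label, with experiment 1 again the lowest. This was a 9.18-fold fall (log2 -3.20, SE 0.55, limma adjusted p = 0.0361), and -2.55 without GapmeR Ntep replicate 1. Probe 2, at chr11:82830985-82831044 and so nearer the 5′ end on the minus strand, read 129, 125 and 120.4 on control arrays and 20.9, 21.4 and 23.0 under the Ntep label. The latter were not well above background on any of the 3 arrays, so only a bound is given, at least 2.51-fold lower. This probe reached the test through its control arrays alone. Its fit (log2 -2.52, SE 0.15, limma adjusted p = 0.0157) rests on values near the floor, so its SE and p add nothing to the bound. Both Slfn8 probes were lower in all 3 experiments.

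Slfn9 lies next to Slfn8 and had smaller differences. Probe 1 (chr11:82793812-82793871, minus strand, mm9) read 3823, 6154 and 4273 on control arrays and 2289.5, 1854 and 2057 under the Ntep label, a 2.26-fold fall (log2 -1.17, SE 0.23, limma adjusted p = 0.0469). Probe 2 (chr11:82793914-82793973) read 851, 1542 and 965 against 402, 359 and 559.9. It was 2.50-fold lower in the means without overlap, but did not pass after adjustment (log2 -1.32, SE 0.30, limma adjusted p = 0.0612). With experiments as blocks, Slfn9 probe 1 no longer passed (limma adjusted p = 0.0532). Slfn5, whose human counterpart is interferon-inducible, stood apart from the other Schlafen probes. Its probe (chr11:82774907-82774966, plus strand, mm9) read 46.8, 20 and 30.2 on control arrays and 322, 20 and 20 under the Ntep label. Only the array labelled Ntep of experiment 1 was well above background, and the probe reached the test through that array alone. The log2 difference of 0.73 (SE 1.13, 95% interval -2.03 to 3.49, limma adjusted p = 0.714) left its direction unresolved.

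**Figure D1:**
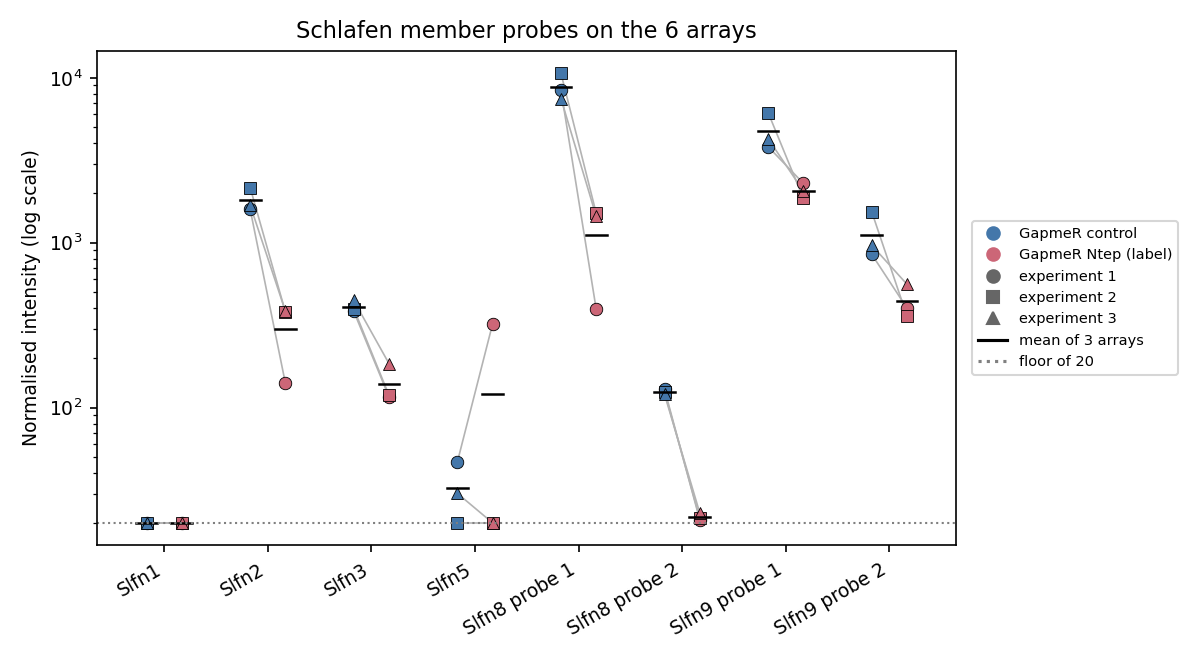
Normalised intensity on a log axis for the 8 Schlafen member probes, with control arrays on the left of each pair and arrays labelled GapmeR Ntep on the right. Symbols mark the 3 experiments, grey lines join arrays of 1 experiment, bars are means of 3 arrays and the dotted line is the floor of 20. Slfn2, Slfn3 and both probes of Slfn8 and Slfn9 are lower on each array labelled Ntep, whereas Slfn1 is at the floor and Slfn5 rises above it chiefly on 1 array, at 322.

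Slfn8 and Slfn9 are similar in sequence, so the probes themselves were compared. No member probe shared a run of 20 bases with any other probe of the array. The closest pair was Slfn8 probe 1 and Slfn9 probe 2, with 36 matching bases over 48 aligned ones and a longest shared run of 19 bases. The 30 bases in which they are most alike are shown to make plain how near the targets are, with the 2 differing bases in capitals.
Slfn8 probe 1: gaaggacataaAtaaTtcccttaaagaaat
Slfn9 probe 2: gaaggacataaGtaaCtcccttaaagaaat
Cross-hybridisation between these probes was not tested. Slfn8 probe 2 and Slfn9 probe 1 shared no run of 15 bases with another family probe.

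The promoters were then searched for interferon-related sequences, because the members moved together. A RefSeq table of GRCm38.p6 gave 11 windows, from 250 bases before to 50 bases after the annotated start, for 9 of the 10 members. Ifi204 had no entry. The core of the interferon-stimulated response element was spelled GAAANNGAA and the gamma-activated sequence TTCNNNGAA, both sought on both strands. The core occurred in 6 of the 11 member windows, which is 54.5%, against 8.56% of all 32851 promoters in the table. The gamma-activated sequence occurred in 1 of them, that of Ifi202b, which is 9.09% against 8.30% of all promoters. These are matches of letters and do not show binding.

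The 2 windows of Slfn8 overlap and hold the same match, which begins at position -47 from the outer start. The Slfn9 match begins at position -44, and both read on the strand opposite to the gene. Over 61 bases centred on the match, the 2 genes shared 44 bases at the same offset. Both windows are shown for the largest and the smallest Schlafen difference that passed, with the core in capitals, at chr11:83020761-83021060 and chr11:82991781-82992080 on the minus strand of GRCm38.p6.
Slfn8: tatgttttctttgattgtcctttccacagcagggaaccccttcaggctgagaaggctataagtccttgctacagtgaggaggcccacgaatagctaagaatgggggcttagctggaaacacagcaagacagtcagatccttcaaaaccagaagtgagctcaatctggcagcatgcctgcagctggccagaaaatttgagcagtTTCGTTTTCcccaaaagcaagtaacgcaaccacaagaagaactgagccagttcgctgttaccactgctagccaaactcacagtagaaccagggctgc
Slfn9: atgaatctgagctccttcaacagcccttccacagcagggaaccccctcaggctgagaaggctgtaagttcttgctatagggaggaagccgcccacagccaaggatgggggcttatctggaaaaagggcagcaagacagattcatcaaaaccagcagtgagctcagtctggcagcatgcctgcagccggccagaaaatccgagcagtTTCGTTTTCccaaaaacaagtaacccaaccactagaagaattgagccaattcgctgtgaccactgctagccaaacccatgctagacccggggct
Slfn5, with no resolved difference, held 2 cores, at positions -155 and -132 (chr11:82951852-82952151, plus strand, GRCm38.p6). Slfn2, which fell 6.56-fold, held none in its window (chr11:83064862-83065161, plus strand, GRCm38.p6). These windows are printed for that contrast.
Slfn5: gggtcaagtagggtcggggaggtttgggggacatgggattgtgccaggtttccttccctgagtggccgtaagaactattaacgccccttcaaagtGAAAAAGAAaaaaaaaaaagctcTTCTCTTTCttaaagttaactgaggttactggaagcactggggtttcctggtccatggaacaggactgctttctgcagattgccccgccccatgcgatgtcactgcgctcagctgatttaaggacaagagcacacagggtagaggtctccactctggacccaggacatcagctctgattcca
Slfn2: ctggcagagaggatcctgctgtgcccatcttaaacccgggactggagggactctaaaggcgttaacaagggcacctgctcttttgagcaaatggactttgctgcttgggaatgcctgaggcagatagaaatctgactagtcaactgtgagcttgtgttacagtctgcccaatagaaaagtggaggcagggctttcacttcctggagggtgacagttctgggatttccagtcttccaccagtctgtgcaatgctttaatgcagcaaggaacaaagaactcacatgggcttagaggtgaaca
Slfn1, Slfn3 and Ifi202b also held no core in these windows, while Ifi205, which has no probe of its own name, held 2.

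Among the Ifi200 members, Ifi203 showed the largest differences. Ifi203 combines a pyrin and a HIN domain. Its 4 probes lie between chr1:175850536-175850595 (probe 2) and chr1:175854206-175854265 (probe 1) on the minus strand in mm9 and were well above background on all arrays. Probe 2 read 46962, 89155 and 65459 on control arrays and 12152, 25320.1 and 11334 under the Ntep label, a 4.28-fold fall (log2 -2.10, SE 0.40, limma adjusted p = 0.0429). Probe 3 read 17274, 23619 and 16998 against 3606, 6102 and 4394, a 4.15-fold fall (log2 -2.05, SE 0.26, limma adjusted p = 0.0250). In both, experiment 2 was the brightest on either side and the groups did not overlap. Probe 4, which is dimmer, read 262, 525 and 408 against 81.7, 131 and 128, a 3.44-fold fall (log2 -1.78, SE 0.33, limma adjusted p = 0.0411).

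Ifi203 probe 1 differed less than the others. It read 21252, 35714 and 26708 on control arrays and 9265, 14031 and 11259.6 under the Ntep label. The 2.40-fold difference did not pass after adjustment in the unpaired fit (log2 -1.26, SE 0.27, limma adjusted p = 0.0530), and passed with experiments as blocks (limma adjusted p = 0.0310). The probes of Ifi203 thus disagreed in size, from -2.10 to -1.26, and agreed in sign. The Ifi203 promoter window that holds a core, at position -35 on the strand of the gene, is shown in the same way (chr1:173942443-173942742, minus strand, GRCm38.p6).
Ifi203: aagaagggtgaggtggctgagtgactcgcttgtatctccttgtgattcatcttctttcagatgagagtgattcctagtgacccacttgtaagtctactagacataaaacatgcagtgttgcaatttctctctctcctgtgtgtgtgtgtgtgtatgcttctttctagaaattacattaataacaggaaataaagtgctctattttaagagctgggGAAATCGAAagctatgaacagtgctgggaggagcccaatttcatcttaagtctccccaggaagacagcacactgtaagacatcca

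Ifi204 is a DNA sensor that also takes part in differentiation of muscle and bone cells. Both of its probes, at chr1:175677647-175677706 (probe 1) and chr1:175677552-175677611 (probe 2) on the minus strand in mm9, fell by similar amounts. Probe 1 read 136180, 128908 and 100297 on control arrays and 48174, 52221 and 51564 under the Ntep label, a 2.39-fold fall (log2 -1.25, SE 0.18, limma adjusted p = 0.0288). Probe 2 read 86979, 86879 and 65945 against 32529, 31863 and 32424, a 2.46-fold fall (log2 -1.30, SE 0.18, limma adjusted p = 0.0281). Arrays labelled Ntep were close to each other, and the control array of experiment 3 was the lowest of its group for both probes.

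Ifi202b encodes a protein without a pyrin domain that is known to hold back Aim2. Its near-identical copy Ifi202a is listed under the same RefSeq entry, and the 2 cannot be told apart here. Probe 1 (chr1:175892953-175893982, minus strand, mm9) read 141157, 158064 and 136036 on control arrays and 52830.2, 86802 and 73933 under the Ntep label, without overlap. The 2.08-fold difference missed the adjusted threshold in the unpaired fit (log2 -1.05, SE 0.23, limma adjusted p = 0.0562) and passed with experiments as blocks (0.0425). Probe 2 (chr1:175892789-175892848) read 165716, 199504 and 115114 against 74495, 121517 and 100140, and here the groups overlapped (log2 -0.69, SE 0.29, 95% interval -1.40 to 0.02, limma adjusted p = 0.210). Both probes were lower in each experiment, by 0.20 in experiment 3 for probe 2 on the log2 scale at the least.

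**Figure D2:**
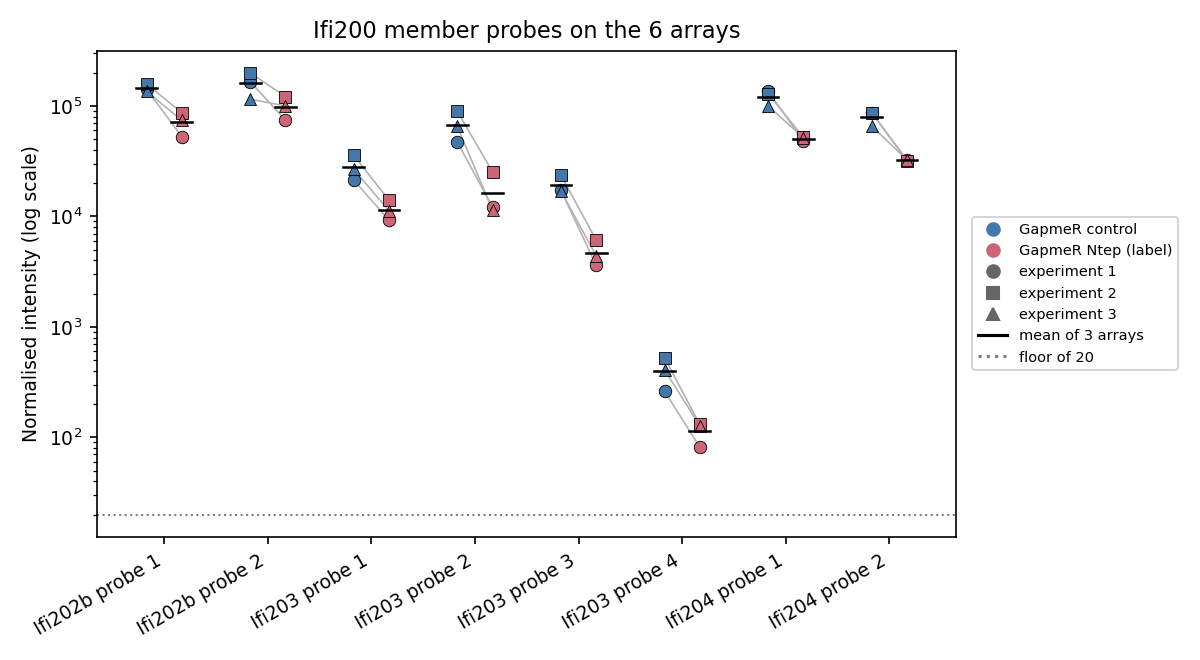
Normalised intensity on a log axis for the 8 Ifi200 member probes, drawn as for the Schlafen probes, with 3 arrays per group, the experiments as symbols and the group means as bars. Arrays labelled GapmeR Ntep lie under all control arrays except for Ifi202b probe 2, where the values meet between 115114 and 121517.

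Within experiments the members kept their direction. All 8 Ifi200 probes and 6 of 7 tested Schlafen probes were lower in each of the 3 experiments, as were 26.7% of all tested probes. The median difference of the Schlafen probes was -1.72, -2.10 and -1.27 in experiments 1, 2 and 3, and that of the Ifi200 probes -1.46, -1.40 and -1.14. Over all tested probes these medians were 0.03, 0.05 and 0.03. Slfn2 and Slfn8 probe 1 differed most in experiment 1 (-3.50 and -4.41), whereas both Slfn9 probes did so in experiment 2 (-1.73 and -2.10). Experiment 1, where the Ntep probe was not lower, gave the most negative difference in 4 of 8 Ifi200 and 3 of 7 Schlafen probes. It did so in 13136 of all 30990 tested probes too, so this was not particular to the members. Without GapmeR Ntep replicate 1, the medians were -1.87 for Schlafen, over the probes then tested, and -1.24 for Ifi200. Slfn5 was not tested in that run. The Schlafen median on all 6 arrays was -2.05 when Slfn5 was left out, so the difference over like probes became smaller.

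**Figure D3:**
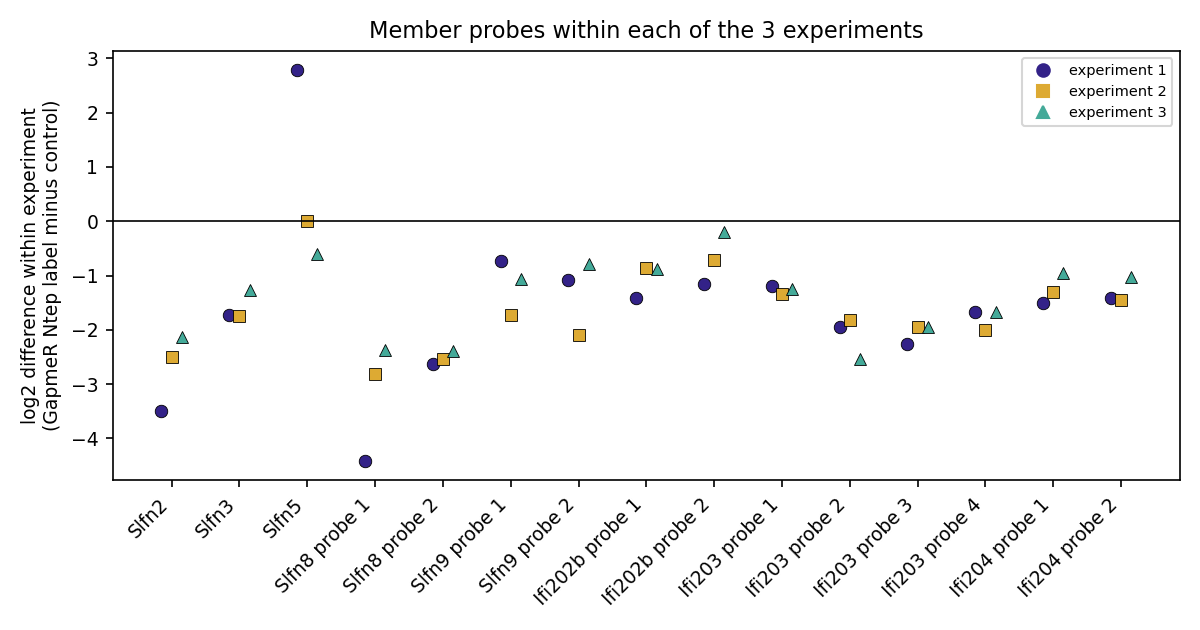
log2 difference between the array labelled GapmeR Ntep and the control array of the same experiment, for the 15 tested member probes, with 1 symbol per experiment. Apart from Slfn5, at 2.78, 0 and -0.60, every point lies below 0.

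Other genes of both families were set beside the members. The array held 19 probes of 13 such genes, of which 13 probes of 11 genes were tested. After adjustment 8 probes of 7 genes were lower and 0 higher in limma (1 higher at an unadjusted p under 0.05), and 10 of 13 were lower without overlap. Of all tested probes, 3.21% were lower and 2.09% higher after adjustment, and 15.1% were lower without overlap. The median log2 difference of the 13 other family probes was -2.40, or -1.57 with 4 dim probes at their bound. In the Schlafen cluster, the pseudogene Slfn10-ps fell 5.27-fold, from 2658 ± 583 to 518 ± 169 (log2 -2.40, limma adjusted p = 0.0268). Slfn4, a Schlafen gene of the myeloid lineage, was at least 2.97-fold lower (limma adjusted p = 0.0223), being above background on control arrays only. Slfn14-ps and Slfnl1 were not well above background on any array.

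Other Ifi200 genes fell as well. Mndal fell 9.41-fold, from 15368 ± 3399.9 to 1662 ± 521 (log2 -3.23, limma adjusted p = 0.0182). Pyhin1, listed as Ifi209, fell 9.76-fold with its brightest probe (limma adjusted p = 0.0224), and E030037K03Rik, listed as Ifi213, was at least 3.82-fold lower (limma adjusted p = 0.0195). BC094916, listed as Ifi214, was lower too, at 574 ± 152 on control arrays against 20, 49.5 and 66.4 under the Ntep label (limma adjusted p = 0.0251). Only 1 of these 3 arrays was well above background, so no fold is given. The probe named Mnda also carries an accession of Ifi205, the member without a probe of its own. It read 15752, 11868 and 5897 on control arrays and 1205, 2031 and 2030.8 under the Ntep label, a 6.05-fold fall (log2 -2.60, SE 0.42, limma adjusted p = 0.0335). Which of both transcripts it measured cannot be told.

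Other relatives did not pass. Aim2, the sensor that assembles an inflammasome on cytosolic DNA, read 192 to 1164 on control arrays and 109 to 991 under the Ntep label (log2 -0.44, SE 1.05, 95% interval -3.00 to 2.12, limma adjusted p = 0.820). It was lower in each experiment, with log2 differences of -0.81, -0.27 and -0.23, and did not pass with experiments as blocks either (limma adjusted p = 0.179). E430029J22Rik, listed as Ifi208, was higher on every array labelled Ntep with its brightest probe, 10382 ± 2034 against 6559 ± 808, but did not pass (log2 0.65, limma adjusted p = 0.129). A second probe of that gene differed by -0.03. AI607873 had a log2 difference of -1.37 that did not pass (limma adjusted p = 0.0651) and passed with experiments as blocks (0.0462). Gm4955 was not well above background under the Ntep label and did not pass (at least 1.46-fold lower, 0.120).

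**Figure D4:**
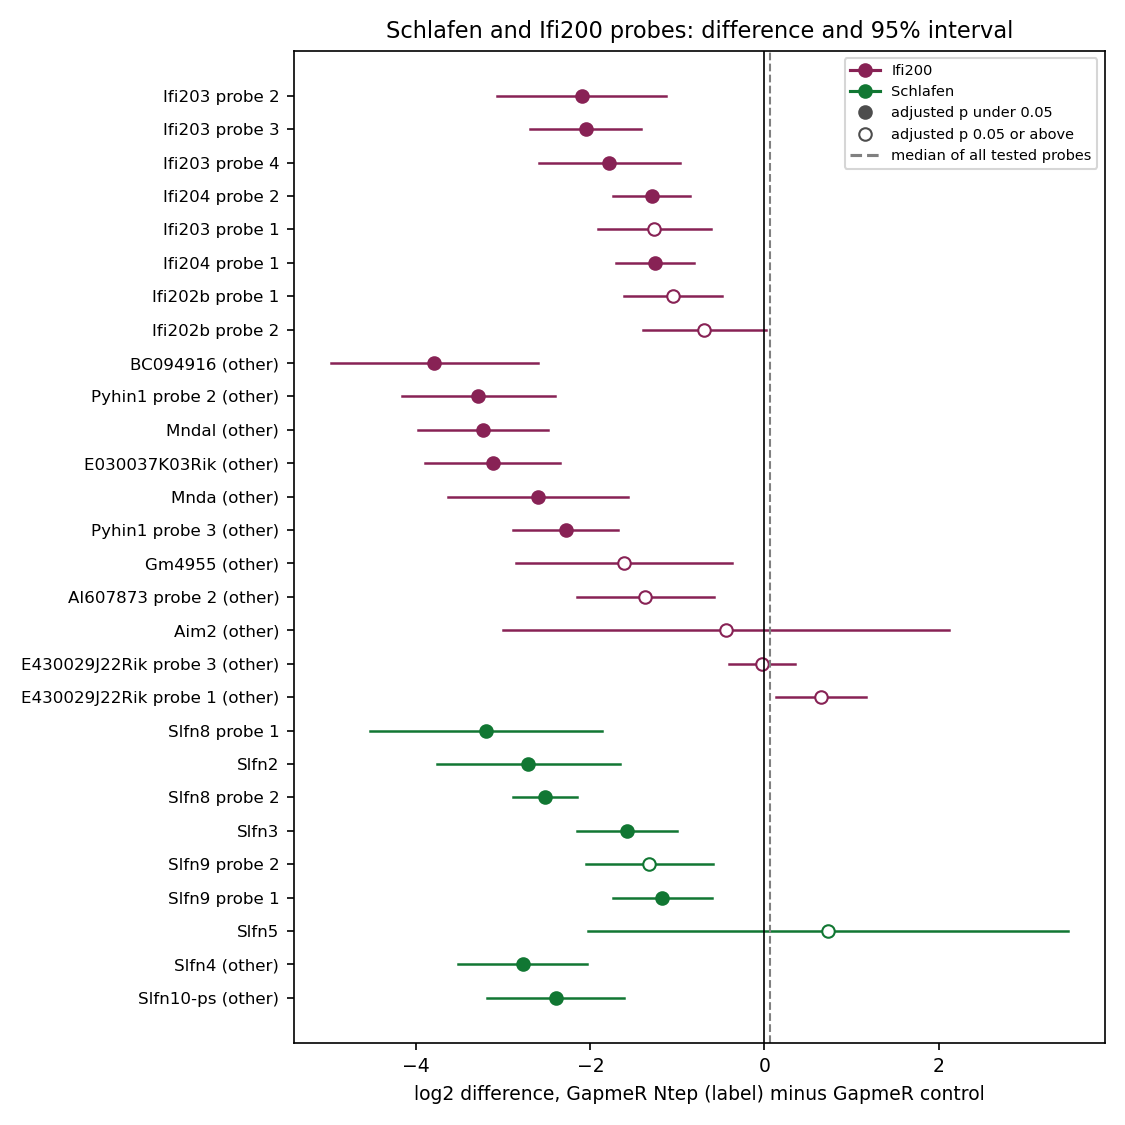
log2 difference (GapmeR Ntep label minus GapmeR control) with the 95% interval from limma for the 15 tested member probes and 13 probes of other family genes. Filled points passed at an adjusted p under 0.05, the dashed line is the median of all tested probes (0.06), and all filled points lie left of it. Dim probes are drawn at their fitted values, not at bounds.

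Genes of the interferon pathway were counted from a list by role. Of 27 listed genes 26 had a probe, and 10 of 29 tested probes were lower after adjustment, each of a different gene, with 0 higher (0 also at an unadjusted p under 0.05). Of all tested probes 3.21% were lower after adjustment and 2.09% higher. Among the ligands, Ifnb1 fell 5.60-fold, from 4451 ± 1599 to 799.9 ± 294 (log2 -2.49, limma adjusted p = 0.0335), and Ifna4 was lower too, at 1448 ± 615 on control arrays against 33.8, 147 and 91.4 under the Ntep label (limma adjusted p = 0.0288). Only 1 of these 3 arrays was well above background, so no fold is given for Ifna4. Ifng, the type II interferon, was at the floor throughout. The receptor subunits of type I interferon did not pass (Ifnar1 -0.09 to 0.36 over 3 probes, Ifnar2 -0.08), whereas Ifngr1 fell 2.52-fold (limma adjusted p = 0.0376). Of 3 kinases 0 passed in the unpaired limma fit, and 1 was at an unadjusted p under 0.05. Jak1 differed by -0.09, and Jak2 (-0.79) and Tyk2 (-1.39) passed with experiments as blocks (0.0482 and 0.0337).

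Factors that act on the response element were mostly lower. Of 9 tested factor probes 5 passed as lower, beside 3.21% of all tested probes. All 9 had every array labelled Ntep under every control array, as had 15.1% of all tested probes. Irf9 fell 2.04-fold (limma adjusted p = 0.0300), Irf3 1.78-fold (0.0430) and Irf5 4.54-fold (0.0472, and 0.0509 with experiments as blocks). Stat2 (log2 -1.46, limma adjusted p = 0.0560) and Irf7 (-2.30, 0.146) did not pass, and did so with experiments as blocks (0.0399 and 0.0443). Among the inhibitors, Usp18 fell 4.59-fold (limma adjusted p = 0.0436) and Socs1 1.84-fold (0.0481), while Socs3 differed by -0.26 (0.599). For Irf1, the dim probe passed (at least 1.77-fold, 0.0468) and the bright one did not (log2 -0.84, 0.0835). The pathway median was -0.84.

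Partners of the Ifi200 proteins in DNA sensing and inflammasomes went in both directions, with 4 of 9 tested probes below 0 and 5 above. After adjustment 1 was lower and 0 higher in limma (1 higher at an unadjusted p under 0.05), beside 3.21% and 2.09% of all tested probes. In 3 of 9 every array labelled Ntep lay under every control array, beside 15.1% of all tested probes. The median was 0.07, in which Mb21d1 counts with 3 probes. Casp1, the inflammasome protease, was at least 3.18-fold lower (limma adjusted p = 0.0232). Tmem173, the adaptor of cytosolic DNA sensing, differed by -0.48 (0.168), Tbk1 by 0.07 (0.865) and Pycard by 0.41 (0.463). Mb21d1, named E330016A19Rik on the array, differed by 0.27 to 0.81 over its 3 probes, none of which passed. Il18 (-2.15, 0.161) and Trex1 (-1.14, 0.0704) did not pass, and did so with experiments as blocks (0.0310 and 0.0468).

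Since Schlafen and Ifi200 genes are prominent in leukocytes, markers of other cell types were read on the same arrays. Ptprc, Tyrobp, Emr1 and Fcgr1, which define leukocytes and macrophages, were not well above background on any array. Other genes of the myeloid list were bright in their brightest probe. Control means were 33903.5 for Mpeg1, 12753 for Itgam, 4791 for Cd14 and 4663 for Cd68. They were 544 for Csf1r and 60.6 for Lyz2, and Cx3cr1 was not well above background on any array. The 19 myeloid probes summed to 48152 to 64451 on control arrays and 49396 to 77072 under the Ntep label, and 7 of them were not above background anywhere. Among 10 tested, Mpeg1 passed with 1 probe as lower, which was not well above background under the Ntep label (at least 2.78-fold, limma adjusted p = 0.0353) and Cd68 with 1 probe as higher (1.21, 0.0287). The other, bright Mpeg1 probe was 9.22-fold lower without overlap and did not pass in the unpaired fit (limma adjusted p = 0.0630). With experiments as blocks, that Mpeg1 probe (-3.21, 0.0316) passed as lower, and Cd14 (1.11, 0.0332), Itgam (1.26, 0.0397) and Csf1r (3.19, 0.0387) passed as higher with 1 probe each. For lymphocytes, the 14 probes summed to 1631 to 2137 and 2131 to 2491, and 0 of 5 tested passed in limma, none of the 5 being at an unadjusted p under 0.05. Of 2 tested endothelial probes 0 passed, and both, Kdr (log2 0.41) and Pecam1 (0.38), were higher on every array labelled Ntep. Of 5 tested epithelial probes 0 passed, and 1, that of Krt18 (1.56), was higher on every such array. Kdr and Krt18 were at an unadjusted p under 0.05 in limma. The part of these genes in the member differences was not tested. In bulk RNA, fewer cells expressing a gene and less RNA per cell cannot be told apart.

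The clusters were placed among their chromosomal neighbours within 500000 bases, by mm9 coordinates. The Schlafen member probes span chr11:82774907-83028490 and the Ifi200 member probes chr1:175677552-175893982. Around the Schlafen cluster, 24 probes of 21 genes outside the family were tested, with a median log2 difference of 0.04 and 12 of 24 below 0. After adjustment 3 of 24 were lower and 1 higher, beside 3.21% and 2.09% of all tested probes. In 8 of 24 every array labelled Ntep lay under every control array, beside 15.1% of all tested probes, and these included Ccl6, Cct6b and both Lig3 probes. The lower ones were dim. Unc45b, a chaperone of myosin, was at the floor on all arrays labelled Ntep and well above background on 1 control array (at least 1.18-fold lower). The transcript 1190001M18Rik, which lies between Schlafen genes, was not well above background under the Ntep label (at least 1.58-fold lower). The chemokine Ccl9 was well above background on only 1 of the 3 arrays labelled Ntep (fitted log2 -2.42). The higher one was Rffl (1.06), a ubiquitin ligase. Around the Ifi200 cluster lie mainly olfactory receptor genes, and 4 of 23 neighbour probes were tested. Of these 0 passed in limma and 1, the predicted gene Gm7897, was at an unadjusted p under 0.05 (log2 1.93). The median was 0.95 over these 4 dim probes.

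**Figure D5:**
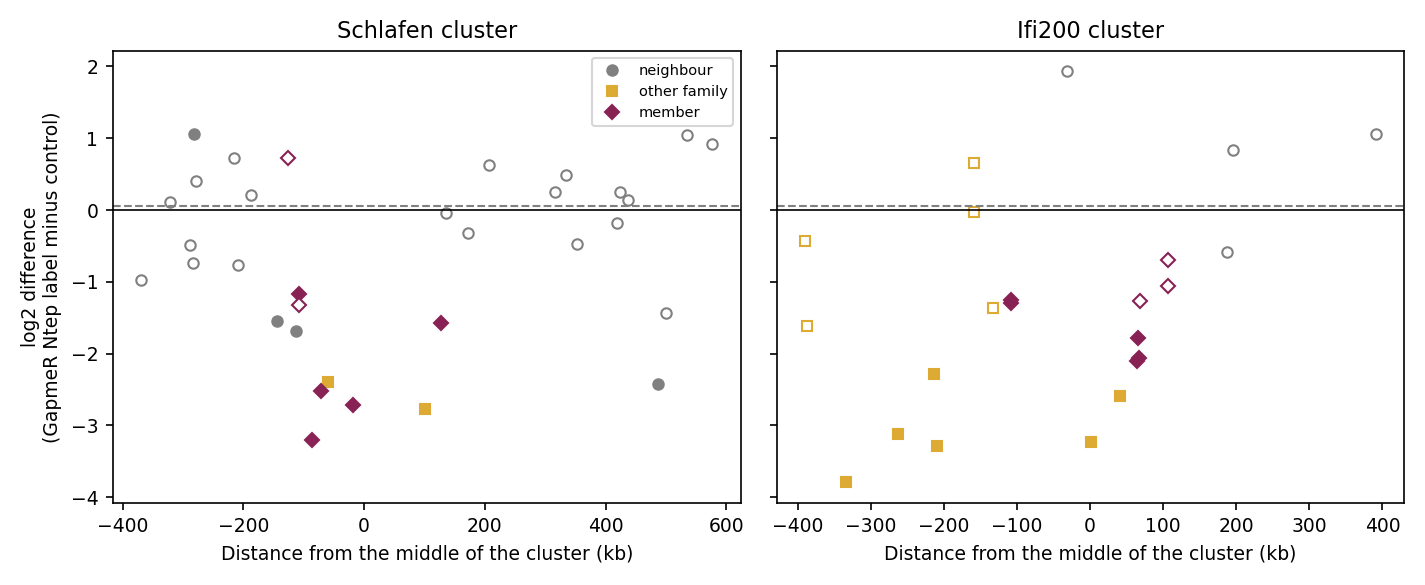
log2 difference (GapmeR Ntep label minus GapmeR control) against the distance in kb from the middle of the Schlafen cluster (left) and the Ifi200 cluster (right) for all tested probes there. Diamonds are members, squares other family genes and circles neighbours, filled when the adjusted p was under 0.05, and the dashed line is the median of all tested probes. Family probes reach -3.79 (a fitted value of a dim probe), while neighbours of the Schlafen cluster scatter around 0.04 in the median.

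Outside the families, the genes whose profile over the 6 arrays was most like the mean member profile were sought. Likeness was the root mean square difference of log2 values, each centred on its own mean, so the direction follows from the choice and is no test. For the Schlafen profile these were Mrvi1 (0.0990), Col5a2 (0.101), Nmi (0.104), Tmco3 (0.123) and Prr22 (0.151), while single Schlafen probes lay 0.215 to 1.83 from their own mean. That mean includes Slfn5, which was well above background on 1 array only, at 322 under the Ntep label in experiment 1. A profile without Slfn5 was not made, so the list depends in part on that value. For the Ifi200 profile they were Parp10 (0.0864), Omd (0.0907), Cc2d2a (0.0946), Tapbp (0.0948) and Atg16l2 (0.102), with Ifi200 probes at 0.138 to 0.443. Nmi is an interferon-inducible protein, Parp10 an ADP-ribosyltransferase and Tapbp a loader of antigen peptides. Col5a2 encodes a fibrillar collagen and Omd a matrix proteoglycan.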

How the data were processed

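Mouse 3T3 cells were profiled on 6 Agilent arrays in 1 colour. The authors deposited scanner intensities from Feature Extraction 10.7.3.1, background subtracted and not normalised between arrays, and a table of quantile-normalised intensities with values under 20 set to 20. The files place the probes on mm9.

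Here, spots of a probe were averaged, arrays were quantile normalised, a floor of 20 was set, and log2 values were compared without pairing in limma 3.58.1 under R 4.3.3. The 30990 probes whose mean reached 50 in the brighter group entered the fit. The p-values are two-sided, with Benjamini-Hochberg adjustment over these probes. Sample notes in supplementary documentation of the study give 1 shared date to each pair of arrays, taken here as 1 experiment. Deviations from the group means correlated between arrays of the same date (0.466, 0.300 and 0.254) above the -0.327 to 0.126 of other pairs. Arrays were therefore taken as paired by experiment, and a fit with experiments as blocks was run as well. The block fit called more of all tested probes, 7.31% as lower against 3.21% in the unpaired fit. It called 2026 probes higher, against 647. A pass in the block fit thus sets a probe less apart from the rest of the array. Dim groups give bounds, from the lowest signal well above background on each array. A probe dim in 1 group could reach the test through the other group alone, and its p then rests on values near the floor. With 3 arrays per group, their number limits the precision, and a permutation test cannot fall below 0.1.

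All member probes are named, along with other genes of both families, pathway and partner lists, cell type markers, neighbours and the 5 most similar genes per family. Neighbour probes whose name is only a transcript or clone accession were left out. Members and lists were chosen with earlier results of these data known. The fit was tested on simulated data. Alternatives covered the normalisation, the floor, the filter, the model and each array left out in turn. Sources differ on the RNA kit, the array format and whether the dose was given once or repeatedly. Protein sequences were not used here, and 1 listed pathway gene is counted but not reported here.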

Additional observations from a re-analysis of the deposited data

How the results depend on the processing

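Of the 15 tested member probes, 14 stayed lower under each of 17 alternatives. The share of all tested probes that did so was not counted. Slfn5 turned from 0.73 to -0.075 with array weights and was not tested without GapmeR Ntep replicate 1 or among probes well above background. The count of 10 member probes lower after adjustment became 3 without a filter on dim probes, where 55681 probes were tested, and 1 by the methods' t-test. The calls among all tested probes shrank as well, to 0.488% and 0.445% lower, against 3.21% in the main fit. With 1 array left out the member count ranged from 0 to 7, and the count of 13 at the unadjusted limits from 9 to 12. With experiments as the replicate block these counts were 11 and 12. That fit called 7.31% of all tested probes lower, against 3.21% in the unpaired fit. The Schlafen median of -1.58 moved to -1.05 with normexp background correction, which raised dim signals and tested Slfn1, and to -2.05 among probes well above background, without Slfn5. Without 1 array it ranged from -1.87 to -1.47, and the Ifi200 median from -1.41 to -1.22. The -1.87 is without GapmeR Ntep replicate 1 and also without Slfn5, so it is set beside the -2.05 and not the -1.58. Scaling by the 75th percentile moved the median of all tested probes to 0.22, and the members to -1.47 (Schlafen) and -1.12 (Ifi200), with 7 probes passing. Under that scaling 2.32% of all tested probes were called lower. Signal over background limits Slfn1, Slfn5 and Slfn8 probe 2.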
